A study of Mus musculus with 56 samples.

Results

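The 49 genes described here encode the machinery that copies DNA in S phase: origin recognition, licensing, the MCM helicase and its activators, the sliding clamp and its loader, polymerases and primase, single-strand binding proteins, Okazaki fragment processing, nucleotide supply, and replication-coupled chromatin factors. They were chosen by name, and each of the 49 matched 1 Ensembl ID among the 24410 gene IDs of the expression table. Their expression was read in single epithelial cells sorted from 3 pooled colon tumors of 1 male ApcMin/+ mouse, whose Min allele truncates the Wnt pathway inhibitor Apc. At 10 weeks of age the mouse was given 2% dextran sulfate sodium (DSS), an irritant of the colon lining, in its water for 5 days, and the tumors were taken at 12 weeks. Living cells negative for Cd31 and Cd45 and positive for Epcam and Cd24 were sorted, and only cDNA in which PCR had found Lgr5, an intestinal stem cell receptor gene, was sequenced. All cells therefore share 1 animal, 1 genotype, 1 treatment and 1 gate, and no untreated or Apc wild-type cells were analysed here.

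Replication is prepared before it starts. The origin recognition complex, Cdc6 and Cdt1 load the MCM helicase onto DNA in G1, and the helicase is switched on at the start of S phase by Cdc45 and the GINS complex. Many of these genes are transcribed under E2F factors as cells leave quiescence, whereas Mki67, which encodes the antigen Ki-67, and Top2a, which encodes topoisomerase II alpha, are textbook marks of cycling cells with peak transcripts late in the cycle. In intestinal tumors, cells with and without these marks sit side by side, and the title of the series concerns quiescent colon cancer stem cells.

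The 56 libraries held 6 pairs whose log2(TPM + 1) profiles correlated at Pearson's r of 0.957 to 0.992, against 0.782 for the next pair, and each pair was averaged as 1 cell, leaving 50 cells. Both libraries of every pair fell in the same class below. Epcam, Cd24a, Krt8, Krt18, Cdh1 and Cldn3 were seen in 50 of 50 cells, and Pecam1, Kdr, Ptprc, Cd3e, Col3a1 and Dcn in 0. The 4 endothelial, 5 leukocyte and 4 fibroblast markers summed to at most 13.3, 80.7 and 8.92 TPM in a cell, although Csf1r and Pdgfra were seen at low levels in 21 and 25 cells. Lgr5 itself reached 1 TPM in 38 of the 50 cells, with a median of 2.18 TPM (20 non-cycling and 18 cycling cells by the classes below). Of the Paneth cell markers, Lyz1 was seen in 24 cells, Defa24 in 22 and Mmp7 in 48, with medians of 0.62, 0 and 445 TPM. Their sum ran from 0.39 to 286600 TPM (median 589) in non-cycling and from 107 to 1424 TPM (median 434) in cycling cells. In a typical cell this sum was thus mostly Mmp7, and the highest sum came from 1 cell dominated by defensin transcripts. The part of these markers in the results was not tested. Values are TPM (transcript abundances scaled to a fixed total), which are scaled for transcript length but keep no read depth, so the depth behind each value is unknown and an exact 0 is reported as listed at 0. A gene counts as seen in a cell where it reached 1 TPM.

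Cycling cells were taken as those with Mki67 or Top2a at 1 TPM or more, which gave 22 cells, and the 28 cells with both below 1 TPM are called non-cycling; the names stand for these transcripts only. Neither gene passed 0.59 TPM in a non-cycling cell, 14 of the 28 were listed at 0 for both, and the higher of both genes was at least 1.35 TPM in every cycling cell. Both genes were seen in 10 cells, Top2a alone in 8 and Mki67 alone in 4. Cycling cells also had more genes seen, with a median of 6182 against 5639, and the part of this in the class differences below was not tested. They made up 12 of 18 cells with i7 indexes N708 to N710 but 10 of 32 with N704 to N707. No group of cells is named in the labels and all cells come from 1 mouse, so differences are given with the spread over cells, without tests.

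Replication genes were seen in both classes, but far fewer per cell outside the cycling class. A non-cycling cell had 3 to 27 of the 49 genes seen, with a median of 13, and a cycling cell 9 to 44, with a median of 33.5. Summed over the 49 genes, the median was 380 TPM per non-cycling cell and 1215 TPM per cycling cell. The classes overlapped: 16 cycling cells had 23 or more genes seen, whereas 6 had 16 or fewer and lay among the non-cycling cells. Where Mki67 and Top2a were both seen, the median was 37 replication genes, against 19.5 with Top2a alone and 31 with Mki67 alone. Within the i7 groups the medians were 12.5 and 28 (N704 to N707) and 14.5 and 36.5 (N708 to N710).

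**Figure D1:**
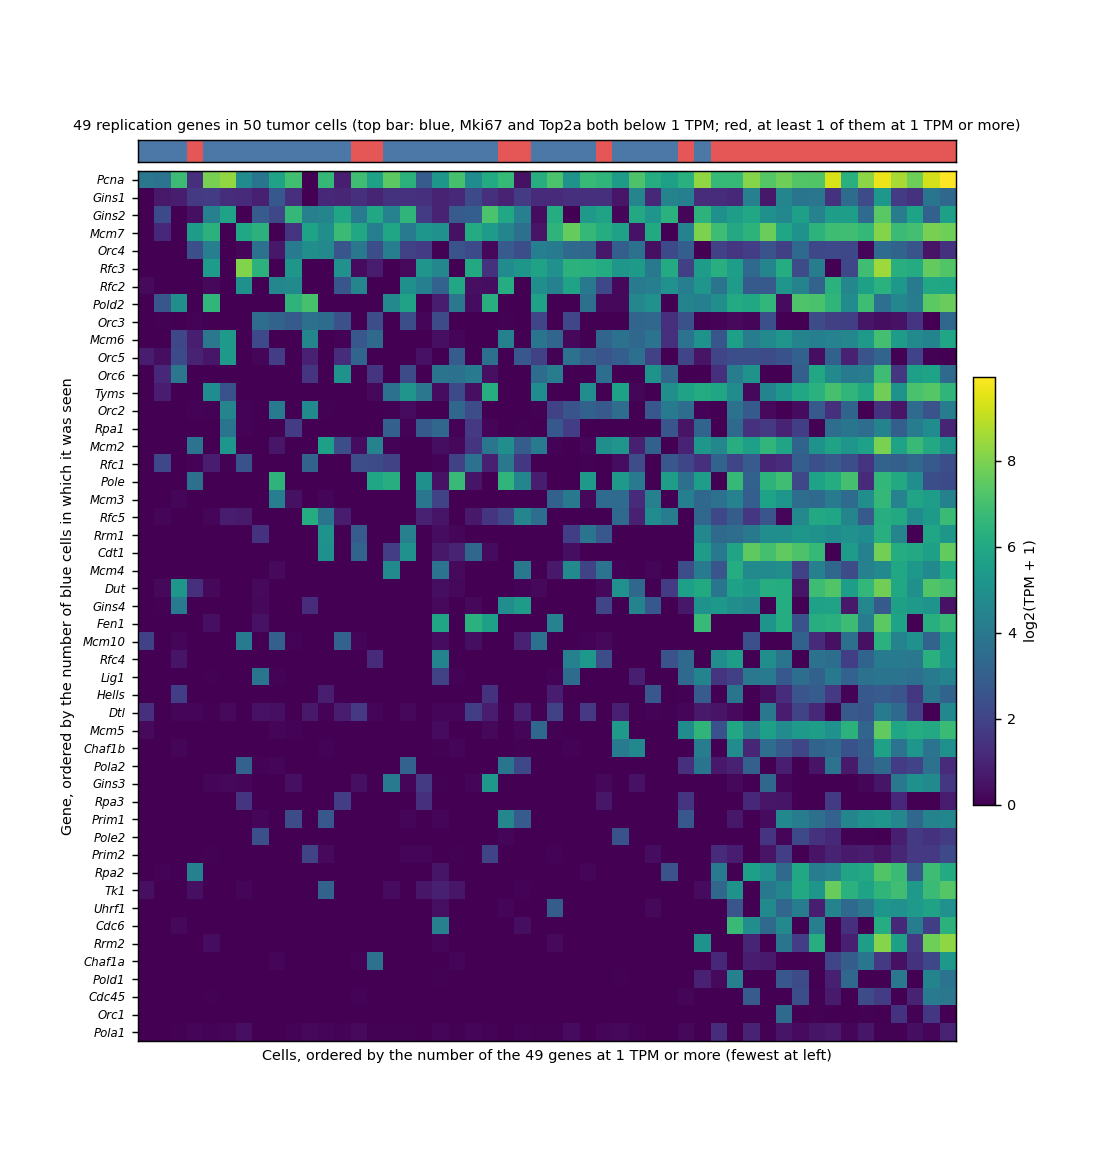
Expression of the 49 replication genes (rows, color as log2(TPM + 1)) in 50 tumor cells (columns, ordered by the number of these genes seen); the top bar marks non-cycling cells in blue and cycling cells in red. Pcna, Gins1, Gins2 and Mcm7 extend across most columns, most other genes fill in among the rightmost 17 cells, which have 23 or more genes seen, and 16 of those are red.

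All 49 genes were seen in at least 1 cell and 40 in at least 20% of cells. In at least 50% of the non-cycling cells, 8 of the 49 were seen: Pcna, Gins1, Gins2, Mcm7, Orc4, Rfc3, Rfc2 and Pold2; over the 14034 genes seen in any cell, that share was 36.4%. Only 5 were seen in cycling cells and in no non-cycling cell (Orc1, Cdc45, Pola1, Pold1 and Chaf1a), against 6.93% of all genes, so this class was not far from the background. Another 5 (Cdc6, Rpa2, Rrm2, Uhrf1 and Tk1) were seen in a single non-cycling cell, and none of the 49 was seen in non-cycling cells alone, against 8.79% of all genes. With 28 cells, a count of 0 has an exact 95% interval up to 12.3%. The size of the cycling-only class was fragile. It held 12 genes within N708 to N710, where there are 6 non-cycling cells, and 7 within N704 to N707. It held 9 at a threshold of 10 TPM and 1 when any value above 0 counted. With Mki67 alone as the mark it held 2, and with Top2a alone 1. The share of all genes was not recomputed under these settings.

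The difference in level was clearer. Mean log2(TPM + 1) was higher by 1 or more in cycling cells for 34 of the 49 genes, against 9.27% of all genes seen in any cell and 13.5% of those seen in 20% of cells. No gene of the 49 was lower by 1 or more, against 1.17% of all genes. The median difference was 1.40 over the 49 genes and 0.11 over all genes (0.15 when ribosomal protein genes and Gm10925 were removed before rescaling). Of the 49 differences, 47 were above 0, as were 8685 of those of the 14034 genes seen in any cell. The 34 became 28 within N704 to N707 and 34 within N708 to N710, and 16 with a pseudocount of 10, which shrinks differences of low genes. For these settings too, the share of all genes was not recomputed.

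**Figure D2:**
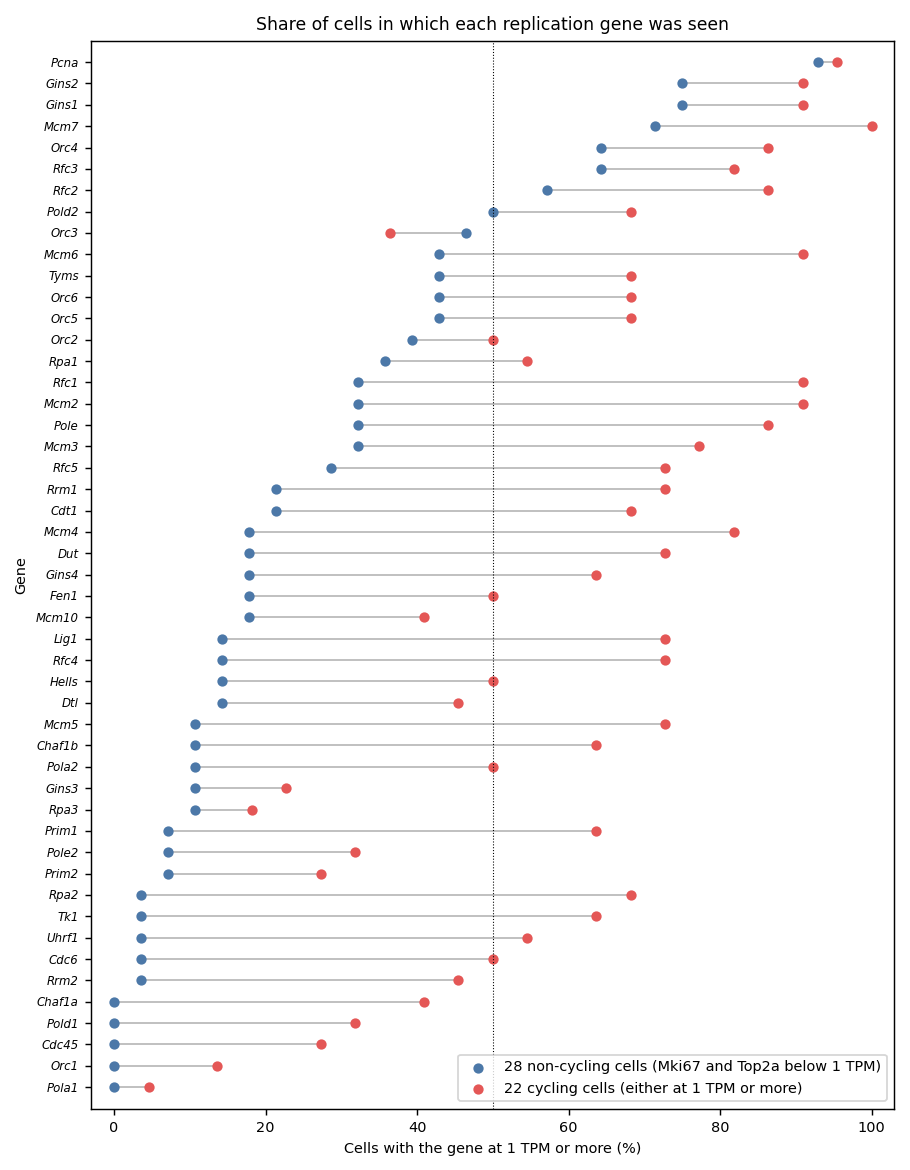
Share of cells in which each of the 49 genes was seen (horizontal axis, percent; 1 row per gene), with blue points for the 28 non-cycling cells, red points for the 22 cycling cells and a dotted line at 50%. The red point lies to the right for 48 genes, and Orc3 is the exception. The cycling share was also the higher one for 9434 of the 14034 genes seen in any cell. At or beyond the line lie 8 blue points.

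The MCM helicase genes encode the 6 subunits of the ring that unwinds DNA, and all 6 were higher by 2 or more log2 units in cycling cells. Mcm7 (ENSMUSG00000029730, chromosome 5, 138164583 to 138172422, minus strand, GRCm38) stood apart from its partners by its presence outside the cycling class. It was seen in 20 of 28 non-cycling cells (71.4%, exact 95% interval 51.3% to 86.8%), with a lowest value of 0, a median of 39.6 and a highest of 252 TPM. In cycling cells it was seen in 22 of 22, from 11.7 to 271 TPM with a median of 85.7, so that the ranges overlapped widely. Mcm5 (ENSMUSG00000005410, chromosome 8, 75109569 to 75128439, plus strand) was the least often seen subunit outside the cycling class. Only 3 non-cycling cells had it, at 9.25, 39.9 and 88.9 TPM, and its median there was 0, whereas 16 of 22 cycling cells had it, with a median of 29.6 and a highest value of 181 TPM. The value of 88.9 TPM came from the non-cycling cell described below that had 27 of the 49 genes seen. The cells that had Mcm5 thus covered similar levels in both classes, and the classes differed in how many cells had it.

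Mcm2 had the largest difference of the 49 genes, 3.51 log2 units, with means of 1.38 ± 2.03 (SD, n = 28 cells) and 4.89 ± 1.78 (SD, n = 22 cells). It was seen in 9 non-cycling and 20 cycling cells, with medians of 0.09 and 35.5 TPM and highest values of 48.1 and 249 TPM. Mcm3 was seen in 9 and 17 cells, Mcm4 in 5 and 18, and Mcm6 in 12 and 20. Their differences were 2.37, 2.72 and 2.61 log2 units, and their medians in cycling cells were 14.4, 17.0 and 20.4 TPM. Subunits of 1 ring were thus seen in unequal shares of non-cycling cells, by count with Mcm7 first and Mcm5 last. The exact 95% intervals of Mcm5 (2.27% to 28.2%) and Mcm4 (6.06% to 36.9%) overlap. That of Mcm6 (24.5% to 62.8%) overlaps that of Mcm7. All these shares come from the same 28 cells, so separate intervals do not compare 2 genes directly. The order rests on few cells.

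**Figure D3:**
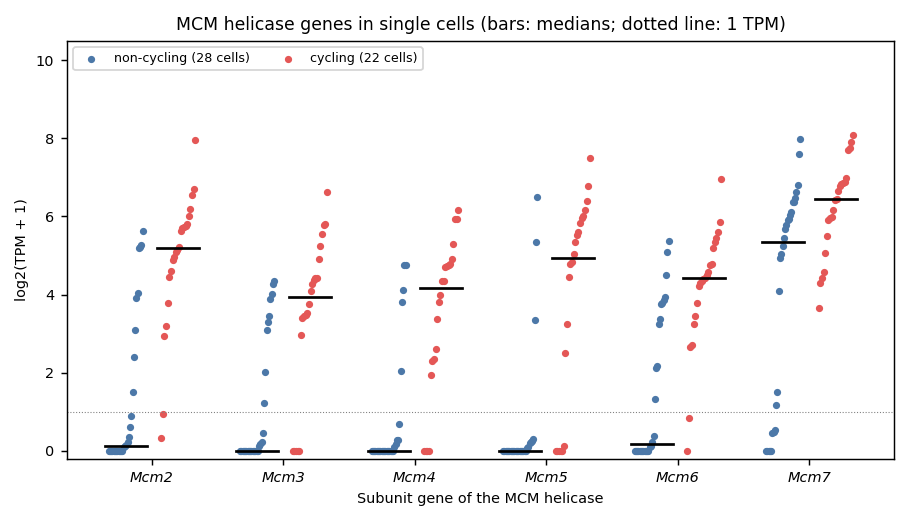
Expression of the 6 MCM helicase genes (horizontal axis) as log2(TPM + 1) in each non-cycling cell (blue, 28) and cycling cell (red, 22), with class medians as bars and 1 TPM as a dotted line. Among these 6, only Mcm7 has a non-cycling median above the dotted line, and every gene has cells of both classes at similar levels.

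Promoter windows are shown for the gene with the largest difference and for 3 genes with the most E2F matches, since E2F factors are known to act on many replication genes. Sequences are the 250 bases before the RefSeq start (GRCm38.p6), 5′ to 3′ on the strand of the gene; capitals mark E2F heptamers and the NF-Y box CCAAT, each on either strand, with overlapping matches run together. The search took TTCCCGC as the first E2F form, TTCGCGC as another, TTGCCGC as the third and TTGGCGC as the last. Mcm2 (chr6:88898781-88899030, minus strand) has the largest difference and has 0 E2F matches and 1 CCAAT. Mcm5 (chr8:75109259-75109508, plus strand), Mcm6 (chr1:128359706-128359955, minus strand) and Pola1 (chrX:93632156-93632405, minus strand), which encodes the catalytic subunit of polymerase alpha, were picked after the search because they have 3 or more E2F matches.
Mcm2: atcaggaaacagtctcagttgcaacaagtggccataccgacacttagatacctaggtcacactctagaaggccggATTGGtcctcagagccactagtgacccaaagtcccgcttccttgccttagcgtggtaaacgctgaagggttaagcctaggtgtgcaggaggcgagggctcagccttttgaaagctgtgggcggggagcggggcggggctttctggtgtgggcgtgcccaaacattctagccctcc
Mcm5: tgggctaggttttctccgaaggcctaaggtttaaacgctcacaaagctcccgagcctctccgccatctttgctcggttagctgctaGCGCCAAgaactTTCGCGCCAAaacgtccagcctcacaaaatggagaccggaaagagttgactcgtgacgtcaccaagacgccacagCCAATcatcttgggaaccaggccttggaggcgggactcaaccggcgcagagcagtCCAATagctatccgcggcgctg
Mcm6: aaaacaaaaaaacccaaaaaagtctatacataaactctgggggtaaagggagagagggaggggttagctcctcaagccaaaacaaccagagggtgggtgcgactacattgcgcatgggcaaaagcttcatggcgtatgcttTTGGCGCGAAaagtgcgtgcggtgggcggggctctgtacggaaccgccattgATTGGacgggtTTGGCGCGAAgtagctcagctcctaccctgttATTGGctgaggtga
Pola1: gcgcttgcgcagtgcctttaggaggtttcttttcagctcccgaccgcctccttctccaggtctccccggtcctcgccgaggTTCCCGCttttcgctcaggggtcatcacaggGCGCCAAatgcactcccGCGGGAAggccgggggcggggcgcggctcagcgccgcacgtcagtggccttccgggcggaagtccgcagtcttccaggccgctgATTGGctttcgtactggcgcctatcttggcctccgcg
Mcm5 has 3 E2F matches and 2 CCAAT boxes, Mcm6 has 4 and 2, and Pola1 has 3 and 1. The E2F matches in Mcm6 form a pair of overlapping heptamers on opposite strands, and this pair occurs at both places.

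Of the 49 genes, 42 had a RefSeq promoter window. An E2F heptamer was present in 19 of them (45.2%), against 7.97% of all 27025 promoters and 13.5% of the 10742 promoters of genes seen in any cell. CCAAT was present in 24 (57.1%), against 34.5% and 36.9%. The CHR element TTTGAA, known from late cell cycle genes, was present in 4 (9.52%), against 16.3% and 11.2%. Matches did not sort the genes by their difference between classes: 11 of 28 genes higher by 1 or more log2 units had an E2F heptamer (39.3%), and 8 of 14 others did (57.1%). Mcm5 and Pola1, both with 3 matches, had differences of 3.33 and 0.25. These are letter matches in a fixed window and do not show binding.

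Cdc6 and Cdt1 load the MCM helicase and were largely a feature of cycling cells. Cdt1 (ENSMUSG00000006585, chromosome 8, 122568015 to 122573554, plus strand) was seen in 6 non-cycling and 15 cycling cells, with medians of 0 and 46.9 TPM and highest values of 42.7 and 226 TPM. Its difference was 3.36 log2 units, although 7 cycling cells were listed at 0. Cdc6 was seen in 1 non-cycling cell, at 18.95 TPM, and in 11 of 22 cycling cells, where its median was 0.72 and its highest value 104 TPM. Both genes went together across the 50 cells, with a Spearman's rho of 0.67. Dtl, which encodes a substrate receptor of the ligase that removes Cdt1 in S phase, was seen in 4 and 10 cells, and its difference was 0.96.

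Origin recognition genes mostly showed small differences. The complex marks replication origins, and 1 of its 6 genes, Orc6, was higher by 1 or more log2 units in cycling cells (1.27, seen in 12 and 15 cells). Orc4 (ENSMUSG00000026761, chromosome 2, 48902824 to 48950277, minus strand) was seen in 18 of 28 non-cycling cells (64.3%, interval 44.1% to 81.4%) and 19 of 22 cycling cells (86.4%, interval 65.1% to 97.1%). Its values ran from 0 to 29.5 TPM with a median of 4.40 outside the cycling class and from 0.12 to 14.8 with a median of 3.92 within it. The difference in mean was -0.03 log2 units, although more cycling cells had Orc4. Where it was seen, its median was 10.825 TPM in non-cycling and 4.245 TPM in cycling cells. The class means were thus close, but the level where seen was higher outside the cycling class.

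Orc3 was the only gene of the 49 seen in a larger share of non-cycling cells, 13 of 28 against 8 of 22, with a difference of -0.37 that lies within the SD over cells of 1.47 and 1.09. Orc2 was seen in 11 and 11 cells and Orc5 in 12 and 15, with differences of 0.16 and 0.39. Orc1, the subunit whose level is cell cycle regulated in mammals, was seen in 3 cycling cells, at 1.74, 2.03 and 9.75 TPM, and was listed at 0 in all 28 non-cycling cells. The 6 genes did not follow each other, with a median pairwise rho of 0.02 (15 pairs, from -0.22 for Orc3 and Orc5 to 0.30 for Orc1 and Orc6). For the 6 MCM genes the same median was 0.62, from 0.48 to 0.76. These values are over all cells and mix both classes. The MCM genes differed more between the classes, and the part of this in their rho was not tested.

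Helicase activation genes split by subunit. Gins1 and Gins2, which encode 2 of the GINS subunits, were each seen in 21 of 28 non-cycling cells (75.0%, interval 55.1% to 89.3%) and in 20 of 22 cycling cells. Their levels were far apart: the medians of Gins1 were 1.38 and 2.37 TPM and those of Gins2 were 18.985 and 37.97 TPM, so Gins1 sat close to the threshold. The other GINS genes were rare outside the cycling class, with Gins3 in 3 and 5 cells and Gins4 in 5 and 14. Gins4 had a difference of 2.54 log2 units against 1.08 for each of Gins1 and Gins2. Cdc45 (ENSMUSG00000000028, chromosome 16, 18780447 to 18811987, minus strand), the partner of GINS on the active helicase, was seen in 0 of 28 non-cycling cells, where its highest value was 0.03 TPM. It reached 1 TPM in 6 cycling cells, from 2.34 to 16.6 TPM. Mcm10, another activator, was seen in 5 and 9 cells.

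The clamp gene Pcna (ENSMUSG00000027342, chromosome 2, 132249162 to 132253314, minus strand) was the most widespread of the 49 outside the cycling class. It was seen in 26 of 28 non-cycling cells (92.9%, interval 76.5% to 99.1%), from 0 to 322 TPM with a median of 68.9. In cycling cells it was seen in 21 of 22, from 0.36 to 987 TPM with a median of 153. Presence of Pcna therefore did not separate the classes, and its mean was 1.39 log2 units higher in cycling cells, with SDs of 2.02 and 2.30. Clamp loader genes followed in 2 tiers. Rfc3 was seen in 18 and 18 cells, with almost equal medians of 31.8 and 32.1 TPM, and Rfc2 in 16 and 19, with medians of 11.6 and 21.6 TPM. Rfc1, Rfc4 and Rfc5 were seen in 9, 4 and 8 non-cycling cells but in 20, 16 and 16 cycling cells. Rfc4 had the largest difference of the loader genes, 2.21 log2 units, and Rfc3 the smallest, 0.89.

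Polymerase and primase genes were mostly seen in few non-cycling cells. Pold2, the second subunit of polymerase delta, was seen in 14 of 28 non-cycling and 15 of 22 cycling cells, with medians of 3.002 and 25.3 TPM. Its catalytic partner Pold1 (ENSMUSG00000038644, chromosome 7, 44532746 to 44548849, minus strand) was seen in 0 and 7 cells, with a highest value of 0.87 TPM outside the cycling class and 21.4 TPM within it. Pole, the catalytic subunit of the leading-strand polymerase epsilon, was seen in 9 and 19 cells, with a difference of 2.30, and Pole2 in 2 and 7. Pold2 was thus seen in more cells than the catalytic gene of delta, and Pole2 in fewer than that of epsilon. Among the regulators described below, the delta genes Pold3 and Pold4 were also seen in more cells than Pold1. Each was seen in 17 non-cycling cells, and they were seen in 16 and 15 cycling cells. For epsilon the contrast depended on the gene taken. The epsilon gene Pole4, another of the regulators, was seen in 21 non-cycling and 20 cycling cells, more than Pole in both classes. Pole3, also of epsilon, was seen in 11 and 18, more than Pole in non-cycling but fewer in cycling cells.

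Primase makes the RNA primer of each new fragment. Its catalytic gene Prim1 was seen in 2 non-cycling cells, at 4.03 and 5.54 TPM, and in 14 cycling cells, with a highest value of 35.6 TPM and a difference of 2.45. Prim2 was seen in 2 and 6 cells and Pola2 in 3 and 11. Pola1 reached 1 TPM in 1 cycling cell, at 1.42 TPM, but was listed at 0 in only 5 of 28 non-cycling and 2 of 22 cycling cells. Its place among the cycling-only genes thus rests on the threshold.

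Single-strand binding genes, which encode the subunits of the RPA trimer, differed among themselves. Rpa2 (ENSMUSG00000028884, chromosome 4, 132768332 to 132778752, plus strand) was seen in 1 of 28 non-cycling cells, at 4.80 TPM, and in 15 of 22 cycling cells, with a median of 18.7 and a highest value of 152 TPM. Rpa1 was seen in 10 and 12 cells and Rpa3 in 3 and 4. Rpa2 differed by 3.45 log2 units and the others by 0.77 and 0.20. Rpa3 was above 0 in 11 cells and did not pass 2.48 TPM in any, so its level left little room for a difference on this scale. Okazaki fragments are trimmed by the flap nuclease Fen1 and joined by Lig1. Lig1 was seen in 4 and 16 cells and Fen1 in 5 and 11. The 5 non-cycling cells with Fen1 ranged from 20.3 to 106 TPM, within the 4.63 to 173 TPM of the cycling cells that had it. The value of 106 TPM came from the non-cycling cell described below that had 27 of the 49 genes seen. For Fen1 the share of cells thus differed more than the level where seen. This was not general: where Cdt1 was seen, its median was 20.2 TPM in non-cycling and 69.9 TPM in cycling cells, and Orc4 went the other way.

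All 5 nucleotide supply genes were higher by 2 or more log2 units in cycling cells. Tk1 (ENSMUSG00000025574, chromosome 11, 117815526 to 117826092, minus strand), which encodes the thymidine kinase of the salvage pathway, was seen in 1 non-cycling cell, at 8.03 TPM, and in 14 of 22 cycling cells, with a median of 28.1 and a highest value of 196 TPM. Dut, which clears dUTP, was seen in 5 and 16 cells, with medians of 0 and 46.6 TPM. Tk1 and Dut shared a difference of 3.47 log2 units. Rrm1 and Rrm2 encode the subunits of ribonucleotide reductase. Rrm1 was seen in 6 and 16 cells, and Rrm2 in 1 and 10, with highest values of 33.1 and 303 TPM. Tyms, thymidylate synthase, was the most widespread outside the cycling class, in 12 and 15 cells, and its medians were 0.30 and 44.7 TPM.

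Chromatin genes of the fork were rare outside the cycling class. Uhrf1, which brings the maintenance DNA methyltransferase to new DNA, was seen in 1 non-cycling cell, at 6.68 TPM, and in 12 cycling cells, with a highest value of 51.9 TPM. Hells, a chromatin remodeler, was seen in 4 and 11 cells. Chaf1a and Chaf1b encode subunits of the chromatin assembly factor that places histones behind the fork. Chaf1a (ENSMUSG00000002835, chromosome 17, 56040439 to 56072289, plus strand) was seen in 0 and 9 cells, from 0 to 38.3 TPM in cycling cells, and Chaf1b in 3 and 14. Of the 4 genes, 3 were higher by 1 or more log2 units, and Hells was higher by 0.98.

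Regulators and partners of replication were read from a list of 40 genes. All 40 differences were above 0, as were 8685 of those of the 14034 genes seen in any cell. The median over the 40 was 0.81, and 16 of the 40 were 1 or more, against 9.27% of all genes. In at least 50% of non-cycling cells, 12 of the 40 were seen, a share near that of all genes (36.4%): Rrm2b in 27 of 28 cells, Ssrp1 in 25, Top1 in 24, Pole4 in 21, Slbp in 19, Pold3, Pold4 and Rnaseh2a in 17 each, Nasp and Supt16 in 16 each, and Cdk2 and Mcmbp in 14 each. Rrm2b encodes the alternative reductase subunit used outside S phase, and its medians were 21.3 and 29.7 TPM, whereas its S-phase counterpart Rrm2 was seen in 1 non-cycling cell. Seen in cycling cells only were 7, against 6.93% of all genes: E2f1, E2f7, Ticrr, Clspn, Chtf18, Dna2 and Asf1b, in 4, 2, 7, 7, 3, 5 and 10 cells. Chosen after its values were seen, Gmnn, which encodes the Cdt1 inhibitor geminin, had the largest difference, 3.41, and was seen in 5 and 18 cells.

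One non-cycling cell, with indexes N708 and N508, had 27 of the 49 genes seen, and the next non-cycling cell had 18. It was listed at 0 for Mki67 and Top2a and had 1 of 30 mitotic genes seen. In it Pcna was at 311 TPM, Mcm7 at 252, Fen1 at 106, Mcm5 at 88.9, Dut at 64.8 and Cdt1 at 42.7 TPM. These values lie within the range of the cycling cells, and several are the highest of the non-cycling class. The cell had 5602 genes seen, close to the class median of 5639. It also carried 10 of the 67 sightings of the 22 genes seen in 1 to 5 non-cycling cells, namely Mcm4, Mcm5, Gins4, Pola2, Lig1, Fen1, Rrm2, Dut, Hells and Chaf1b. Without this cell the counts hardly moved: 7 genes in place of 8 were seen in most non-cycling cells, 6 in place of 5 in cycling cells only, and 35 in place of 34 were higher by 1 or more. The remaining sightings were scattered, with 0 to 5 per non-cycling cell. At the low end, the cell with the fewest genes seen (1316) had 3 replication genes, and a cell dominated by defensin transcripts had 6.

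Across all 50 cells the number of replication genes seen followed the number of 30 mitotic genes seen (cyclins, kinases, spindle and centromere genes, without Mki67 and Top2a), with a Spearman's rho of 0.68, and 0.58 and 0.68 within the i7 groups. The rho was 0.31 within the non-cycling cells and 0.68 within the cycling cells. The number of all genes seen per cell moved with both and had a rho of 0.74 with the replication genes; given it, the partial rho with the mitotic genes was 0.47. Points here share library and depth, and no p is given. Summed histone transcripts, which peak in S phase, had a rho of 0.33 over all cells, 0.56 within cycling and 0.04 within non-cycling cells. Expression of Prox1, the factor in the title of the series, had a rho of -0.37 with the number of replication genes, -0.31 and -0.15 within the i7 groups, -0.63 within cycling and -0.08 within non-cycling cells.

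**Figure D4:**
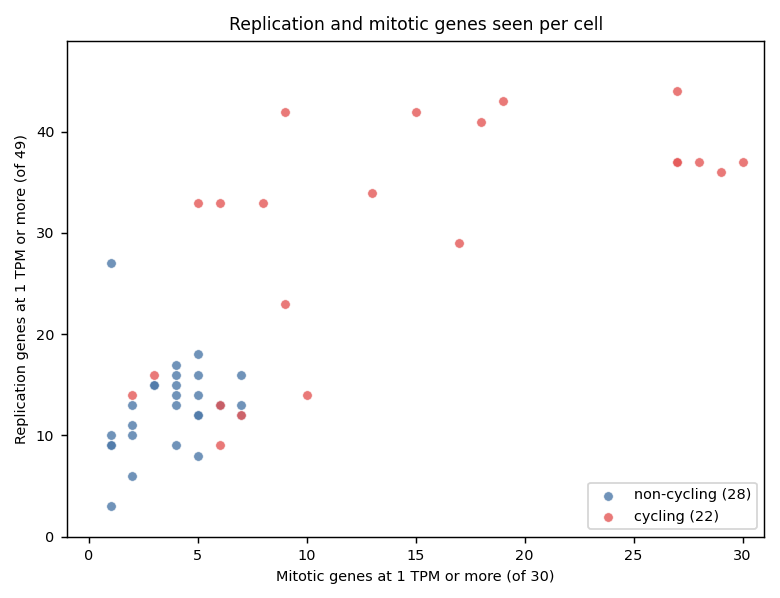
Number of the 49 replication genes seen (vertical axis) against the number of 30 mitotic genes seen (horizontal axis) in each cell, blue for non-cycling and red for cycling. Cells with 18 or fewer replication genes gather at the lower left, 6 cells have 23 or more replication genes with fewer than 10 mitotic genes, and 11 have 23 or more with 10 or more.

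Some of the 49 genes tracked the others closely and some not at all. Against the mean of the other 48, over all 50 cells, rho was highest for Uhrf1 (0.75), Mcm5 (0.75), Mcm3 (0.72), Mcm4 (0.72) and Dut (0.72). It was lowest for Orc4 (-0.02) and Orc3 (0.04). Within the non-cycling cells rho was 0.315 for Mcm3, 0.38 for Mcm4, 0.205 for Dut, 0.176 for Orc4 and -0.12 for Orc3. There it was not computed for Uhrf1 and Mcm5, seen in fewer than 5 of those cells. Values over all cells mix both classes, and the part of the class difference in them was not tested. Over all 1176 pairs the median rho was 0.37, from -0.28 for Orc4 and Pola2 to 0.78 for Cdt1 and Rrm1. The groups with the highest median pairwise rho after Cdc6 with Cdt1 and Lig1 with Fen1 (0.64) were the MCM genes, the chromatin genes (0.61) and the nucleotide supply genes (0.61); the clamp and loader genes had 0.31, the polymerases 0.35 and the single-strand binding genes 0.19. Among 9166 genes seen in 20% of cells, the 10 outside all lists most like the mean of the 49, with a positive rho in both i7 groups, were Tuba1b (0.77), H2afz (0.74), Ptma (0.73), Mms22l (0.72), Slc16a1 (0.72), Dtymk (0.72), Cenpk, 4930558C23Rik and Ranbp1 (0.71 each) and Spdl1 (0.70).

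An order of rise was sought by ranking the 50 cells by the mean of the other replication genes, in 5 bins of 10 cells, and noting where each gene passed the middle between its lowest-bin and highest-bin means. This is an order along expression, not along time. The bins held 1, 3, 2, 6 and 10 cycling cells and a median of 9, 12.5, 15, 28 and 39 replication genes. Of 44 genes with a position, 3 passed their middle at or before bin 3: Orc4 (1.09), Gins2 (1.76) and Orc2 (2.52). The position of Orc4 reflects almost no rise, since its mean was 1.77 in the first bin, highest in the second at 2.95, and 1.98 in the last. Gins1 (3.18), Rfc3 (3.57), Mcm4 (3.68), Rfc2 and Mcm3 (3.70 each), Mcm5 (3.76) and Mcm6 (3.79) came next. Tk1 (4.30), Uhrf1 (4.31), Rrm2 (4.32), Prim1 (4.33), Chaf1a (4.54) and Mcm10 (4.64) were among the last. Mcm10 did not rise steadily, since its mean was 1.23 in the first bin, 0.149 to 0.555 in the next 3 and 3.002 in the last.

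Most of these positions are too close to rank. Leaving out each i5 index in turn moved a gene's position over a median range of 0.70 bins, and the count at or before bin 3 ran from 1 to 8. Ordering cells by the mitotic genes instead gave 11 such genes, and positions on both axes had a rho of 0.47 over 44 genes. Positions also had a rho of -0.58 with mean level, so that abundant genes passed their middle earlier. No position was given for Orc1 and Pola1, seen in fewer than 5 cells, nor for Orc3, Orc5 and Rpa3, whose mean was not higher in the last bin.

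A coarser comparison used 3 sets of cells. It was chosen after the values were seen, and its sets are ranges of per-cell counts, not cell types. Counts of replication genes left a gap between 18 and 23; 33 cells lay below it and 17 above, of which 6 had fewer than 10 mitotic genes (23 to 42 replication genes) and 11 had 10 or more (29 to 44). The 6 cells were chosen for having many of the 49 genes seen. Higher levels of the 49 as a set than in the 33 cells thus followed from the choice. The 34 genes higher by 1 or more log2 units (12.7% of all genes) are a description only. The step from the 6 to the 11 was set by mitotic genes outside the list. In it 15 of the 49 were higher by 1 or more, against 8.63% of all genes, and 0 lower by 1 or more, against 6.99%.

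The 6 MCM genes differed by less than 0.5 log2 units between the 6 cells and the 11. Mcm5 differed by -0.22, with medians of 54.1 and 45.1 TPM (0 in the 33 cells), Mcm4 by -0.48, Mcm3 by 0.06, Mcm6 by 0.18, Mcm7 by 0.25 and Mcm2 by 0.26. Cdt1 (0.39), Dut (0.23), Pold2 (0.28), Chaf1b (0.07) and Lig1 (-0.12) also lay close to 0. Cdc6 and Pole were lower in the 11 cells by 0.86 and 0.83. The helicase activation genes were mixed, with Mcm10 higher by 1.31, Gins1 by 1.01, Cdc45 by 0.72, Gins4 by 0.40 and Gins2 by 0.14, and Gins3 at -0.41.

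The largest values of this step came from nucleotide supply, fragment processing, single-strand binding and primase genes. Tk1 was 3.58 log2 units higher in the 11 cells, seen in 3 of 6 cells and 11 of 11, with medians of 7.68 and 80.2 TPM. Fen1 was higher by 3.32 (2 of 6 and 10 of 11 cells), Rpa2 by 3.31 (3 of 6 and 11 of 11), Rrm2 by 3.07 (3 of 6 and 8 of 11) and Prim1 by 2.83 (2 of 6 and 10 of 11). Rrm1 (2.18), Rfc5 (2.06), Uhrf1 (1.62) and Tyms (1.60) followed, and Pcna, seen in all 17 cells, had 0.79. Genes of 1 role could differ here, as with Tk1 (3.58) and Dut (0.23) or Fen1 (3.32) and Lig1 (-0.12). The 6 cells include the non-cycling cell with 27 genes, and sets of 6 and 11 cells leave each value dependent on few cells.

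**Figure D5:**
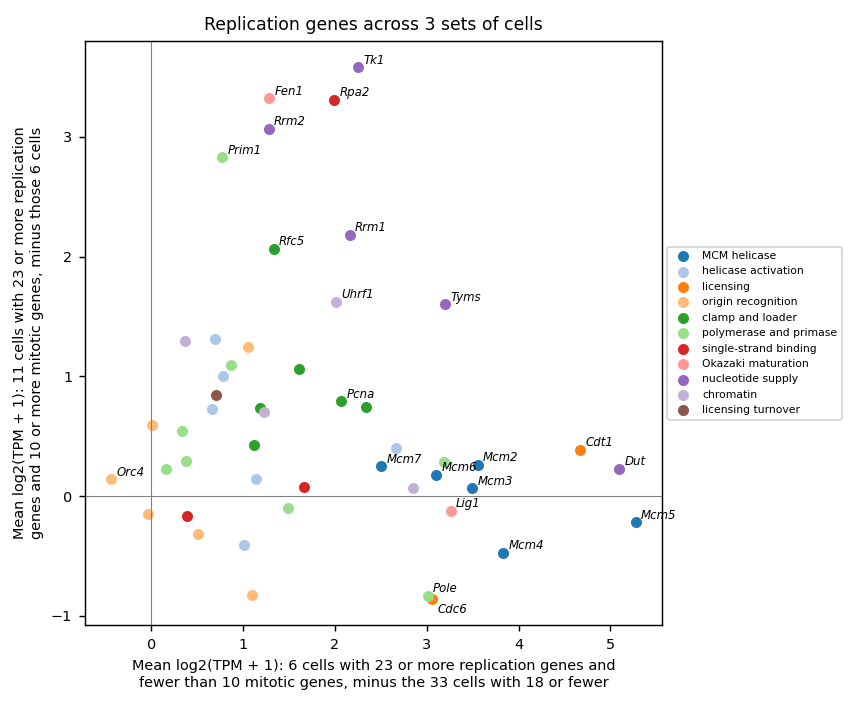
Difference in mean log2(TPM + 1) of each of the 49 genes between the 6 cells with many replication but few mitotic genes and the 33 cells with few replication genes (horizontal axis), and between the 11 cells with many of both and those 6 (vertical axis); colors give the role. How the cells were chosen raises the horizontal values as a set, although Orc4 (-0.439) and Orc3 (-0.035) lie below 0. MCM genes, Cdt1, Dut, Lig1, Pole and Cdc6 lie to the right near or below 0 on the vertical axis. Tk1, Fen1, Rpa2, Rrm2 and Prim1 lie at the top.

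Several values may hold reads of other loci. Transcripts of Pcna, Mcm7, Cdc6, Rfc5, Uhrf1, Rrm2, Pole2 and Tyms have near-identical stretches elsewhere. Gm5487 matches Mcm7 at 97.7% over 2157 bases, and Pcna-ps2 matches Pcna at 99.2% over 781 bases. Gm49384 matches Pole2 at 99.6% over 249 bases, and none of these loci has a row in the table. Tyms also shares stretches with genes that do have rows, among them Map3k2 (357 bases, seen in 16 cells) and Wdr59 (358 bases, seen in 8). How reads were shared among such loci is unknown. Exons of Gins2 overlap Gse1 on the opposite strand over 67.3% of their length, those of Chaf1a overlap Ubxn6 over 52.5%, those of Orc2 overlap Nif3l1 over 29.8% and those of Fen1 overlap Gm10143 over 78.8%. Whether counting used strand is not stated in these sources. Gse1 was seen in 3 cells and Ubxn6 in 38, and their rho with Gins2 and Chaf1a was -0.25 and -0.02.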

How the data were processed

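Single-cell cDNA libraries (Bead-seq, per the labels) were measured from 1 mouse. The authors deposited TPM per Ensembl gene ID in 56 libraries; bcl2fastq 1.8.4, RSEM 1.2.31 and Bowtie2 2.2.9 are listed in the submitters' processing notes, with settings not stated there. Depth cannot be read from TPM. Columns were matched to samples by index pair. Symbols (24235 IDs matched) and coordinates came from GENCODE M21 (GRCm38), promoters from RefSeq.

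The 49 genes and all lists were chosen with earlier results of these data known, and every one of the 49 may be named. Where 2 libraries correlated above 0.9 (Pearson, log2(TPM + 1), genes reaching 1 TPM in 20% of libraries), their mean stood for 1 cell. Means used log2(TPM + 1); folds on this scale understate changes of low genes. Shares have exact Clopper-Pearson 95% intervals, which cover counting error only. Cells of 1 mouse are not replicates, so no test was run; correlations are Spearman's rho as description. Regulators were named if seen in most non-cycling or only in cycling cells. Windows of Pcna, Mcm7, Rfc3, Dut and Tk1, also due for printing, overlap annotated exons and are not shown; where a gene had several starts the first listed was used. Alternatives were other thresholds, pseudocounts, scalings, class marks, index groups, libraries as cells, axes and bins. Scripts were tested on simulated data. Tools were SciPy 1.17.1, pandas 2.3.3, numpy 2.4.6 and matplotlib 3.10.9 under Python 3.11.15.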

Additional observations from a re-analysis of the deposited data

How the results depend on the processing

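Of 105 recomputed values, 80 stayed close to the reported value, 25 moved and 0 reversed. Close was set loosely: within a fixed fold for counts, 1 SD over cells for medians and a 95% interval for rho. It took in 23 in place of 33.5 genes per cycling cell at 10 TPM. Within i5 N506 to N517 it took in 12 genes seen in most non-cycling cells in place of 8, and a rho of 0.528. Shares of all genes were not recomputed under these alternatives, so the counts below have no background beside them. The 8 genes seen in most non-cycling cells became 20 when any value above 0 TPM counted, 5 at 10 TPM and 16 within i7 N708 to N710. The 5 genes seen in cycling cells only became 1 above 0 TPM, 9 at 10 TPM, 2 with Mki67 alone as the mark, 1 with Top2a alone, 2 with at least 10 mitotic genes as the mark (added after the data were seen), 12 within N708 to N710 and 8 within i5 N502 to N505. The 34 genes higher by 1 or more log2 units became 16 with a pseudocount of 10. The median of 13 genes per non-cycling cell became 20 above 0 TPM and 8 at 10 TPM. The rho of 0.68 with mitotic genes became 0.471 given the genes seen per cell and 0.31 within the non-cycling cells (added later). The 3 genes past their middle by bin 3 became 5 with a pseudocount of 0.1, 11 on the mitotic axis, 1 with 3 bins and, leaving out i5 indexes (added later), 6 without N502, 5 without N504, 8 without N505, 6 without N506, 6 without N507, 5 without N508 and 1 without N517; the cause was not tested. The median of 33.5 genes per cycling cell did not move beyond 1 SD over cells in any of 13 alternatives. With the 56 libraries taken as cells the counts were 8, 5 and 35, the medians 13 and 33.5, and the rho 0.715. No paired analysis was possible because the libraries form 1 group. The depth behind each value is unknown, and the count of genes past their middle moved in 10 of 17 alternatives, more than any other of the 7 results.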
